A study of Canis lupus familiaris with 6 samples.

Results

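The regulators of the epithelial-to-mesenchymal transition (EMT), vimentin and the classical cadherins were examined in canine mammary tumor cells. The gene set was *VIM*, *CDH1*, *CDH2*, *SNAI1*, *SNAI2*, *SNAI3*, *ZEB1*, *ZEB2*, *TWIST1* and *TWIST2*, and every probe of the array that carries one of these names and is not a control was taken. This gave 12 probes for 9 of the 10 symbols, out of 43603 probes on the array. No probe was found under the name *TWIST1*, so that gene was not analysed here. All 12 probes passed the intensity filter, as did 40862 probes of the whole array.

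RNA of 3 canine mammary tumor cell lines was hybridized to 6 two-colour Agilent oligo arrays. P114 comes from an anaplastic cancer, CMT-U27 from a simple carcinoma and CMT-U309 from a spindle cell tumor. Each line was grown alone (monoculture) or in co-culture with myeloid-derived suppressor cells (MDSCs), immature myeloid cells that were sorted from the blood of healthy dogs and kept apart from the tumor cells by a transwell insert. The sample labels give at least 72 h of co-culture, and the methods give a shorter time. Each line is 1 established line with 1 monoculture RNA and 1 co-culture RNA. These were compared on a dye-swap, which is a pair of arrays where co-culture RNA carries the red dye Cy5 on replicate 1 and the green dye Cy3 on replicate 2. There were therefore 12 channels of 6 cultures, and the p-values between lines measure only the spread between 2 cultures of a line. Each slide held 1 line, so slide and line cannot be told apart.

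E-cadherin, encoded by *CDH1*, joins epithelial cells to each other at adherens junctions, while N-cadherin, encoded by *CDH2*, and the intermediate filament protein vimentin are typical of mesenchymal cells. The SNAI zinc finger proteins, the ZEB zinc finger homeobox proteins and the TWIST helix-loop-helix proteins are transcription factors, and several of them repress *CDH1* in epithelial tumors. Loss of E-cadherin with gain of N-cadherin and vimentin is the classical description of EMT in mammary carcinoma.

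The probes that measured these genes are shown because each value below belongs to 1 probe and not to a whole transcript. The sequences are the 60-base probes of the scanner output, written 5′ to 3′ in lower case. Capitals mark the longest run of bases that a probe shares with another of the probes compared or with that probe's reverse complement. For *ZEB1* and *CDH2*, 1 probe is shown.
CDH1: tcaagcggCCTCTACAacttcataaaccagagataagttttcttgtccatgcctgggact
CDH2: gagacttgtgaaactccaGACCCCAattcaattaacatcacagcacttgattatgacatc
SNAI1: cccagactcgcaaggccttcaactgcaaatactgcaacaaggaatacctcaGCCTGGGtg
SNAI3: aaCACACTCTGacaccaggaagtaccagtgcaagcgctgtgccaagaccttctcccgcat
ZEB1: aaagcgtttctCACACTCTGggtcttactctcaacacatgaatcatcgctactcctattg
ZEB2: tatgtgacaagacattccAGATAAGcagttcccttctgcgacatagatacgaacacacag
TWIST2: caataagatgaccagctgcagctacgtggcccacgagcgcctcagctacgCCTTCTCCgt
The longest run shared in either orientation by any of the probes compared was 10 bases. The *SNAI3* and *ZEB1* probes shown share a run of 9 bases. On the canFam2 build the *CDH1* probe lies at chr5:83792408-83792467 on the minus strand and the *SNAI3* probe at chr5:67664129-67664188 on the plus strand. The *VIM* probe lies at chr2:22506352-22506411 and the *ZEB1* probe shown above at chr2:18190736-18190795, both on the minus strand. The *CDH2* probes lie at chr7:63954346-63954405 and, for the sequence shown, at chr7:63919679-63919738, on the plus strand with 34607 bases between them. The remaining probes shown are at chr24:39475478-39475537 (*SNAI1*, plus strand), chr19:49452968-49453027 (*ZEB2*, minus strand) and chr25:52188696-52188755 (*TWIST2*, plus strand). No exon annotation of this build was used here.

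Levels are log2 of the processed signal of a channel after all channels were scaled to a common median, so 1 unit is a 2-fold difference. They are compared between samples for the same probe and never between probes. A channel counts as measured where the scanner software flagged the spot as well above background. Between 53.0% and 81.0% of all spots were well above background, depending on the channel. Over 20741 probes well above background everywhere, the 2 dyes of a culture correlated at 0.988 to 0.992 and the 2 cultures of a line at 0.984 to 0.990, across probes, which are not independent replicates. Channels of CMT-U27 correlated at 0.872 to 0.897 with CMT-U309 and at 0.891 to 0.907 with P114, and those of CMT-U309 and P114 at 0.936 to 0.946.

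In CMT-U27 *CDH1* was higher, and *VIM*, *CDH2*, *SNAI1*, *SNAI2*, *ZEB1*, *ZEB2* and *TWIST2* were lower, than in either of the other lines. Against P114, 1 of the 12 probes was higher in CMT-U27, 10 were lower and 1 did not pass the Benjamini-Hochberg adjusted threshold of 0.05 in limma. Of all probes tested, 21.7% were higher and 19.7% lower in this comparison. The median difference was -4.07 over the 12 probes and -0.15 over all 40861 probes, and 6 of the 12 differed by more than 4 on the log2 scale where 2.32% of all probes did. CMT-U309 compared with CMT-U27 gave 10 probes higher, 1 lower and 1 not called, where 19.7% of all probes were higher and 26.9% lower. Its median was 4.14 over the 12 probes and -0.04 over all. The dimmer *CDH2* probe and the 2 dimmer *ZEB1* probes were well above background in no CMT-U27 channel. The medians of both comparisons with CMT-U27, and the count of probes past 4, therefore rest in part on signals at background. CMT-U309 compared with P114 gave 0 higher, 3 lower and 9 not called, against 11.8% and 17.7% of all probes, and its medians were -0.01 and -0.14. The direction of these calls turned with the scaling. Without scaling 5 of the 12 probes were higher and 0 lower, and with quantile normalization or with normexp 1 was higher and 2 were lower. The sizes of these differences depended on the background correction. With normexp and an offset of 50, which is added to every signal and so compresses dim ones, CMT-U27 minus P114 was 1.16 for *CDH1*, -4.40 for the brighter *CDH2* probe, -3.58 for *SNAI2*, -2.10 for the brightest *ZEB1* probe, -0.69 for *SNAI1*, -0.40 for *TWIST2* and -0.36 for *ZEB2*, all still past the adjusted threshold. In RNA of a whole culture, fewer cells of a type and less RNA per cell cannot be told apart.

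**Figure D1:**
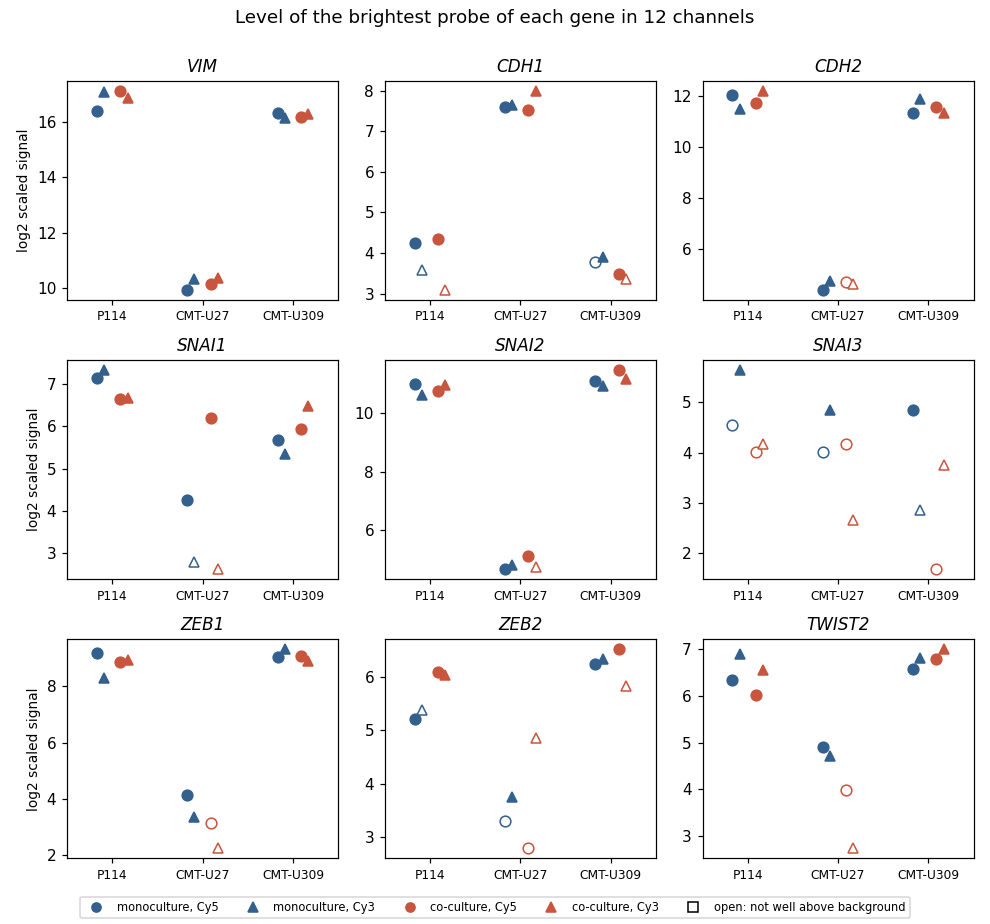
Log2 scaled signal (vertical axis) of the brightest probe of each gene in the 4 channels of each cell line, with blue for monoculture, red for co-culture, circles for Cy5, triangles for Cy3 and open symbols for channels not well above background. The vertical scale differs between panels, and CMT-U27 stands apart from P114 and CMT-U309 in *VIM*, *CDH1*, *CDH2*, *SNAI2*, *ZEB1*, *ZEB2* and *TWIST2*.

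The *VIM* probe read 17.10, 17.08, 16.86 and 16.38 in the 4 channels of P114, given here and below as co-culture and monoculture of replicate 1, then co-culture and monoculture of replicate 2. In CMT-U309 it read 16.18, 16.15, 16.29 and 16.33, and in CMT-U27 it read 10.15, 10.32, 10.36 and 9.94. All 12 channels were well above background and every CMT-U27 channel lay below all others. The mean was 16.86 ± 0.18 (SD, n = 2 cultures) in P114, 16.24 ± 0.0023 in CMT-U309 and 10.19 ± 0.088 in CMT-U27. *VIM* was 102-fold lower in CMT-U27 than in P114, a difference of -6.67 (SE 0.14, adjusted p = 1.0e-09 in limma), and 65.9-fold higher in CMT-U309 than in CMT-U27. CMT-U309 minus P114 was -0.62 (adjusted p = 0.0078), and this call depended on the scaling. The difference had the other sign, 0.15, without scaling, and 0.11 after quantile normalization. Without the first P114 array it was -0.39 (adjusted p = 0.13).

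A second probe, named in the scanner output by a transcript and not by *VIM*, carries the same RefSeq accession as the *VIM* probe. It falls outside the rule, was found after the files were seen and was counted in no total. Its sequence is shown because it was another reading of the same gene, on the same arrays and with the same scaling, with capitals as above.
VIM: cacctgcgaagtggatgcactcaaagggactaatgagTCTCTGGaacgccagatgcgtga
The 60 bases span 410 bases of the genome at chr2:22508722-22509131 on the minus strand. This probe had means of 18.20 in P114, 16.84 in CMT-U309 and 11.18 in CMT-U27. The differences were -7.02 for CMT-U27 minus P114, 5.67 for CMT-U309 minus CMT-U27 and -1.35 for CMT-U309 minus P114 (SE 0.18 each).

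*CDH1* was highest in CMT-U27. It read 7.52, 7.65, 7.99 and 7.60 in the CMT-U27 channels, all well above background. In P114 it read 4.35, 3.58, 3.09 and 4.24, and in CMT-U309 3.47, 3.89, 3.37 and 3.77, with 2 of 4 channels well above background in each of these lines. The CMT-U27 channels did not overlap with the others. *CDH1* was 14.7-fold higher in CMT-U27 than in P114, a difference of 3.88 (SE 0.27, adjusted p = 2.1e-06 in limma), and 16.8-fold lower in CMT-U309 than in CMT-U27. P114 and CMT-U309 differed by -0.19 (SE 0.27), which did not pass the threshold, and their channels overlapped.

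*CDH2* was high where *CDH1* was low. The brighter *CDH2* probe read 11.71, 11.47, 12.19 and 12.05 in P114 and 11.58, 11.87, 11.34 and 11.31 in CMT-U309. In CMT-U27 it read 4.71, 4.75, 4.62 and 4.41, where only the 2 monoculture channels were well above background. It was 150-fold lower in CMT-U27 than in P114, a difference of -7.23 (SE 0.15), and 120-fold higher in CMT-U309 than in CMT-U27. The second *CDH2* probe was well above background in all 8 channels of P114 and CMT-U309 and in 0 of 4 of CMT-U27, so only a bound is given. It was at least 5.61-fold higher in P114 and at least 5.49-fold higher in CMT-U309 than in CMT-U27. These bounds hold for the processed signals only. Among the alternatives the log2 differences shrank to -0.79 for CMT-U27 minus P114 and to 0.82 for CMT-U309 minus CMT-U27. P114 and CMT-U309 differed by -0.33 in the brighter probe and -0.04 in the other, neither of which passed the threshold. Without scaling both differences had the other sign, at 0.44 and 0.73, while leaving out the first P114 array gave -0.59 for the brighter probe, and leaving out the first CMT-U309 array gave -0.53, and both of these passed. The unscaled 0.44 also passed, in the other direction (adjusted p = 0.033 in limma).

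Of the transcription factors, *SNAI2* (Slug) had the largest differences from CMT-U27 in the scaled signals. It read 10.76, 10.61, 10.95 and 11.01 in P114 and 11.47, 10.91, 11.18 and 11.11 in CMT-U309. In CMT-U27 the channels read 5.13, 4.82, 4.75 and 4.69, of which 3 were well above background. The level in CMT-U27 was 63.4-fold lower than in P114 (difference -5.99, SE 0.15) and 79.9-fold lower than in CMT-U309 (6.32, SE 0.15). CMT-U309 minus P114 was 0.33 and did not pass, but passed without scaling (adjusted p = 0.00023 in limma) and at 0.47 after quantile normalization (adjusted p = 0.038 in limma).

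*SNAI1* (Snail) was lower in CMT-U27 too, with less agreement between channels. P114 read 6.65, 7.32, 6.67 and 7.13, and CMT-U309 read 5.94, 5.34, 6.48 and 5.67, all well above background. CMT-U27 read 6.19, 2.79, 2.63 and 4.26, and the 2 readings in Cy5 were the higher ones and the only ones well above background. The difference from P114 was -2.97 (SE 0.34, adjusted p = 7.5e-05 in limma), with no overlap of channels. CMT-U309 was 1.89 above CMT-U27 (adjusted p = 0.0013), with overlapping channels, and without the second CMT-U27 array this was 1.37 with an adjusted p of 0.11. CMT-U309 minus P114 was -1.08 (adjusted p = 0.039), and this call was lost without scaling (-0.31) and in 4 of the 6 fits that leave out 1 array.

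*ZEB1* was measured by 3 probes, of which the brightest read 8.86, 8.30, 8.93 and 9.17 in P114. It read 9.09, 9.31, 8.90 and 9.06 in CMT-U309 and 3.14, 3.36, 2.26 and 4.15 in CMT-U27, where only the 2 monoculture channels were well above background. This probe was 48.1-fold lower in CMT-U27 than in P114 (difference -5.59, SE 0.27) and 58.0-fold lower than in CMT-U309. The other 2 probes were well above background in all channels of P114 and CMT-U309 and in none of CMT-U27. They gave bounds of at least 17.7-fold and at least 5.05-fold for P114 over CMT-U27, and of at least 18.9-fold and at least 5.75-fold for CMT-U309 over CMT-U27. These bounds hold for the processed signals only. Among the alternatives the log2 differences shrank to -1.22 and -0.55 for CMT-U27 minus P114, and to 1.26 and 0.66 for CMT-U309 minus CMT-U27. All 3 probes thus ordered the lines the same way against CMT-U27. CMT-U309 minus P114 was 0.27, 0.03 and 0.18, and none of these passed the threshold. For the brightest probe it passed at 0.38 with normexp (adjusted p = 0.022 in limma) and at 1.04 without scaling (adjusted p = 0.0090).

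*ZEB2*, the relative of *ZEB1*, was nearer to background. It lay between 5.21 and 6.09 in P114, between 5.83 and 6.51 in CMT-U309 and between 2.80 and 4.86 in CMT-U27, with 3, 3 and 1 of 4 channels well above background. It was 4.01-fold lower in CMT-U27 than in P114 (adjusted p = 0.00032 in limma) and 5.86-fold lower than in CMT-U309 (adjusted p = 5.1e-05 in limma). *TWIST2*, whose protein heterodimerizes with other helix-loop-helix factors, lay between 6.03 and 6.89 in P114, between 6.58 and 6.99 in CMT-U309 and between 2.75 and 4.91 in CMT-U27. It was 5.15-fold lower in CMT-U27 than in P114 and 6.51-fold lower than in CMT-U309. Neither gene passed the threshold between CMT-U309 and P114 (0.55 and 0.34), and both did without scaling (1.32 and 1.11).

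*SNAI3* was near background in all lines, with 1 of 4 channels well above background in each. The mean level was 4.60 for P114 and 3.93 for CMT-U27, against 3.29 for CMT-U309. The differences of CMT-U27 from P114 (-0.67, adjusted p = 0.13 in limma) and of CMT-U309 from CMT-U27 (-0.64, adjusted p = 0.14 in limma) did not pass. CMT-U309 minus P114 was -1.31 (adjusted p = 0.013 in limma), the channels overlapped, and without the first CMT-U309 array this was -0.30 (adjusted p = 0.73).

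**Figure D2:**
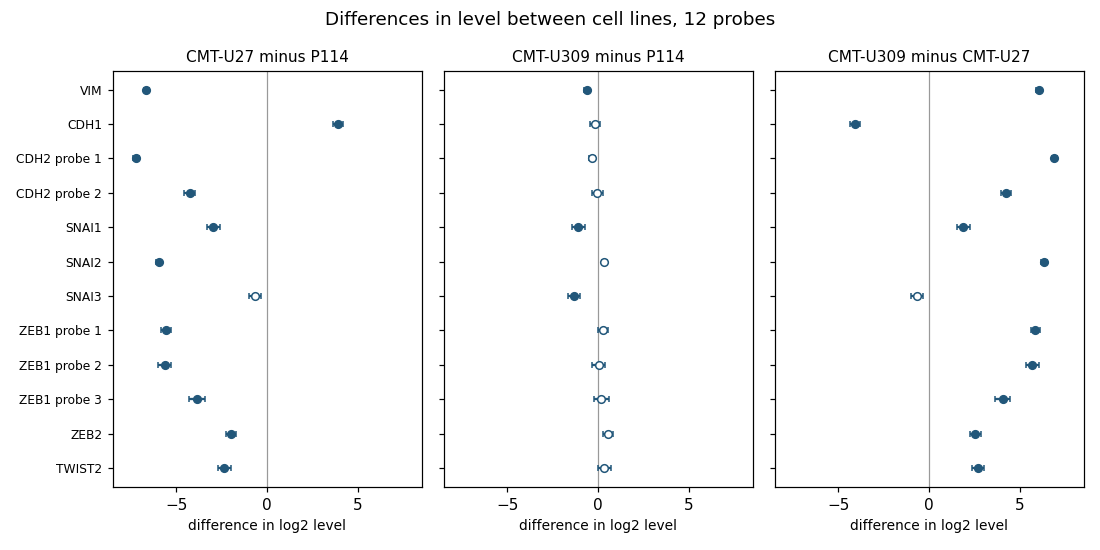
Difference in log2 level (horizontal axis) between cell lines for the 12 probes, with bars for the SE of the limma fit on 6 cultures and filled symbols for an adjusted p under 0.05. In both comparisons with CMT-U27 *CDH1* stands on one side and 10 probes on the other, while CMT-U309 minus P114 stays between -1.31 and 0.55.

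The genes whose level over the 6 cultures was nearest to that of *CDH2* and *VIM*, the 2 members with the widest range of line means, were looked for among 10151 candidates. For *CDH2* they were *TCF4* (distance 0.67 between centred log2 levels), *VIM* (0.88), *LOC479459* (0.91), *EFCAB1* (0.92) and *PCOLCE* (0.99). For *VIM* they were *EFCAB1* (0.57), *INHBA* (0.62), *IGFBP7* (0.66), *LOC479459* (0.82) and *SLC16A3* (0.85). *TCF4* and *EFCAB1* were well above background in 8 of 12 channels and had mean levels of 2.38 and 1.71 in CMT-U27, so their distances and places rest in part on signals at background. The 6 cultures come from 3 lines, so this likeness describes mainly how 3 levels are ordered.

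Other genes of the EMT programme were described by lists, each gene by its brightest probe. Of 21 tested epithelial junction and cytoskeleton genes, 16 were lower and 3 higher in CMT-U309 than in CMT-U27, with a median difference of -3.20. The difference was -11.3 (SE 0.23) for the keratin *KRT19* and -8.74 (SE 0.16) for the adhesion molecule *EPCAM* on the log2 scale, while *CTNNA1*, which encodes the α-catenin that links cadherins to actin, was higher by 3.09 and the mucin *MUC1* by 4.53. *KRT19* was well above background in 3 of 4 channels of CMT-U309 and *MUC1* in 2 of 4 of CMT-U27. The sizes of these 2 differences therefore rest in part on signals near background. Of 10 epithelial transcription and splicing regulators 8 were lower and 0 higher, with a median of -3.12. Among these, *EHF* had a difference of -8.32 and was well above background in 2 of 4 channels of CMT-U309. *ELF5*, an ETS factor of the luminal mammary lineage, was well above background in all 4 channels of CMT-U27 and in 0 of 8 of the other lines.

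Of 24 mesenchymal genes 18 were higher and 3 lower in CMT-U309 than in CMT-U27, with a median of 2.63. The collagen genes *COL1A1* and *COL3A1* had log2 levels of 16.22 and 15.63 in CMT-U309 and were well above background in 1 of 4 CMT-U27 channels each, and the ecto-nucleotidase gene *NT5E* had a difference of -3.84. The protease gene *MMP9* was well above background in all 4 channels of CMT-U27 and in 0 of 4 of CMT-U309. Of 23 EMT inducers and cofactors 9 were higher and 6 lower, with a median of 0.10. The homeobox gene *PRRX1* was higher by 9.15, and the receptor gene *NOTCH1* had a difference of -2.44. *PRRX1* was well above background in 3 of 4 channels of CMT-U27, and *NT5E* in 3 of 4 of CMT-U309. The mean of *STAT3* was 10.87 in CMT-U27 and 8.87 in CMT-U309. *TCF4*, which encodes an E protein that pairs with helix-loop-helix factors, was well above background in 0 of 4 CMT-U27 channels and in all 8 others. Of all probes 46.6% were called in this comparison.

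Between CMT-U309 and P114 29.5% of all probes were called. Of the epithelial junction genes 13 of 21 were lower and 0 higher, with a median of -0.77. The median of all probes moved from -0.14 to 0.63 without scaling. Of the mesenchymal genes 10 were higher and 6 lower, with a median of 0.49. Of the epithelial regulators 2 were higher and 1 lower, and of the inducers and cofactors 4 were higher and 8 lower, with medians of 0.05 and -0.28.

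**Figure D3:**
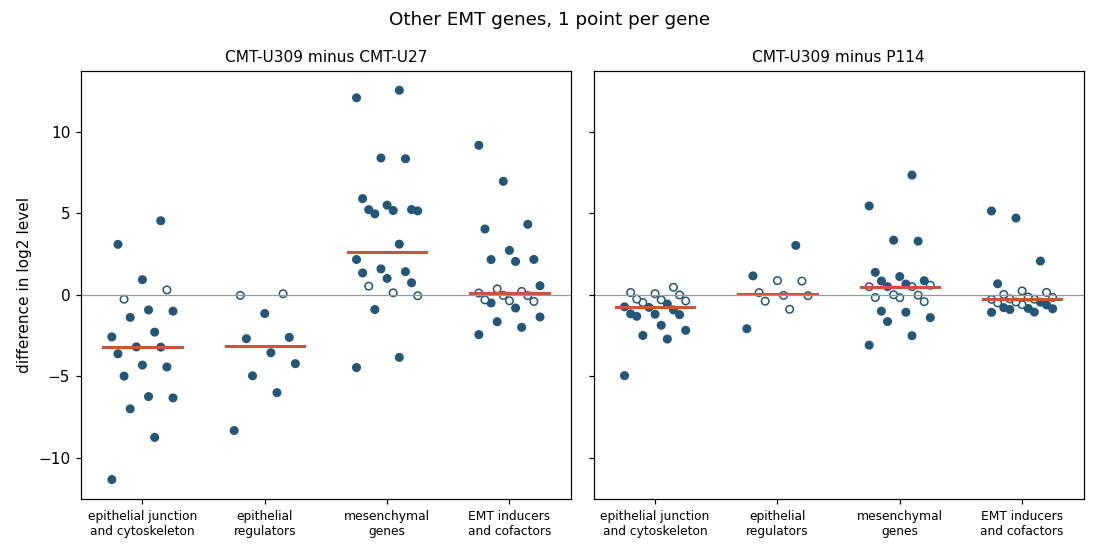
Difference in log2 level (vertical axis) of the genes of 4 EMT lists, 1 point per gene, for CMT-U309 minus CMT-U27 and CMT-U309 minus P114, with filled points for an adjusted p under 0.05 and red bars for list medians. Against CMT-U27 the epithelial lists have medians of -3.20 and -3.12 and the mesenchymal list 2.63. Against P114 the medians of these 3 lists are -0.77, 0.05 and 0.49.

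Cell type markers were compared with the labels of the lines. The 3 luminal epithelial markers with a probe summed to between 105514 and 118833 in CMT-U27, to between 1543 and 2075 in P114 and to between 397 and 446 in CMT-U309 (linear scaled signal). The 8 fibroblast markers summed to between 336148 and 371953 in CMT-U309, between 161268 and 179427 in P114 and between 6625 and 6796 in CMT-U27. Each sum is carried by its brightest probes, chiefly *COL1A2* for the fibroblast list. For the luminal list these were chiefly *KRT19* and *EPCAM* in CMT-U27 and P114, and *MUC1* in CMT-U309. There the log2 level was 8.15 for *MUC1*, 6.68 for *EPCAM* and 4.71 for *KRT19*. Not all markers followed the sums. The log2 level of *MUC1* was 3.62 in CMT-U27, against 8.63 in P114 and 8.15 in CMT-U309. The level of *THY1* was lowest in P114 (9.35) and that of *PDGFRB* in CMT-U309 (6.70). The other 3 luminal markers of the list had no probe under their name. Among 5 basal and myoepithelial markers with a probe, 3 were higher and 0 lower in CMT-U309 than in CMT-U27. Over all probes, 19.7% were higher and 26.9% lower in that comparison.

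Co-culture was then compared with monoculture. None of the 12 probes passed the adjusted threshold, 3 had an unadjusted p under 0.05 in limma, and 1 probe, *SNAI3*, passed the thresholds of the methods, an unadjusted p under 0.05 with a change of over 2-fold. These thresholds called 1.03% of all probes higher and 0.198% lower in co-culture. The mean log2 ratio of the 3 lines had a median of 0.15 over the 12 probes and 0.01 over all probes. Over the whole array 0 probes passed after adjustment in limma and 4058 had an unadjusted p under 0.05, and the smallest adjusted p was 0.23. Without P114, however, 6330 probes passed after adjustment, without CMT-U309 25 passed, and without the first P114 array 22 passed.

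The cadherins and vimentin had small ratios. The *VIM* ratio on the 6 arrays was 0.02 and 0.48 in P114, -0.17 and 0.42 in CMT-U27 and 0.03 and -0.04 in CMT-U309, where the first value of each pair is replicate 1. The mean was 0.12 (SE 0.11, n = 3 lines). The *CDH1* ratios were 0.77 and -1.14 in P114, -0.13 and 0.39 in CMT-U27 and -0.42 and -0.40 in CMT-U309, with a mean of -0.15 (SE 0.22). The brighter *CDH2* probe had ratios of 0.23 and 0.14 in P114, -0.04 and 0.21 in CMT-U27 and -0.28 and 0.03 in CMT-U309, with a mean of 0.05 (SE 0.12). None of these 3 genes was on the same side of 0 on all 6 arrays.

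*SNAI3* was lower in co-culture on 6 of 6 arrays. Its ratios were -1.62 and -0.37 in P114, -0.68 and -1.37 in CMT-U27 and -1.17 and -1.11 in CMT-U309. The mean was -1.05 (SE 0.26, adjusted p = 0.50 in limma), and -0.12 with normexp. It was well above background in 3 of 6 monoculture channels and in 0 of 6 co-culture channels. Against the lowest measured signals it was 1.30-fold lower in co-culture. This is no firm bound, since only 3 of 6 monoculture channels were measured. The probe fell short of the thresholds of the methods without the first P114 array (-0.84) and without the second CMT-U27 array (-0.94).

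*SNAI1* moved in different directions. It was lower in co-culture on both P114 arrays (-0.68 and -0.46) and higher on both CMT-U309 arrays (0.60 and 0.81), and this difference between lines was not tested, since a line has no replicate. With normexp the line ratios shrank to -0.18 in P114 and 0.16 in CMT-U309. In CMT-U27 the ratio was 3.41 on replicate 1 and -1.63 on replicate 2, and the Cy5 channel was the higher one on both arrays. The mean of the 3 lines was 0.34 (SE 0.28), -0.50 without the first CMT-U27 array and 1.18 without the second. *SNAI2* ratios lay between -0.06 and 0.56, with a mean of 0.18 (SE 0.12).

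The 3 *ZEB1* probes did not agree in co-culture. The brightest had a mean of -0.36 (SE 0.22) and the others 0.72 (SE 0.29) and 0.81 (SE 0.36). The widest gap was in CMT-U27, where the brightest probe had a line ratio of -1.06 and was well above background in monoculture only. Among the alternatives this ratio shrank to -0.063. The 2 dimmer probes were well above background in no CMT-U27 channel, so the ratios of 1.75 and 2.07 there are not measured changes, and with normexp they were 0.18 and 0.013. In P114 they were 0.16, 0.32 and 0.02, and in CMT-U309 -0.19, 0.07 and 0.34. The dimmest probe passed the thresholds of the methods without P114 (1.21), and the 2 dimmer probes passed without CMT-U309 (1.04 and 1.05).

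*ZEB2* was higher in co-culture on both P114 arrays (0.70 and 0.83) and had ratios of opposite sign within CMT-U27 (-0.96 and 1.56) and within CMT-U309 (0.18 and -0.41). The P114 line ratio was 0.77, and 0.12 with normexp. The mean of *ZEB2* over the lines was 0.32 (SE 0.23), and -0.10 without the second CMT-U27 array. *TWIST2* was lower on both CMT-U27 arrays (-0.73 and -2.16). It was well above background there in 2 of 2 monoculture channels and 0 of 2 co-culture channels. This gives a bound of at least 1.36-fold for the processed signals, while the CMT-U27 ratio was -0.11 with normexp. The mean of *TWIST2* over the lines was -0.53 (SE 0.29).

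**Figure D4:**
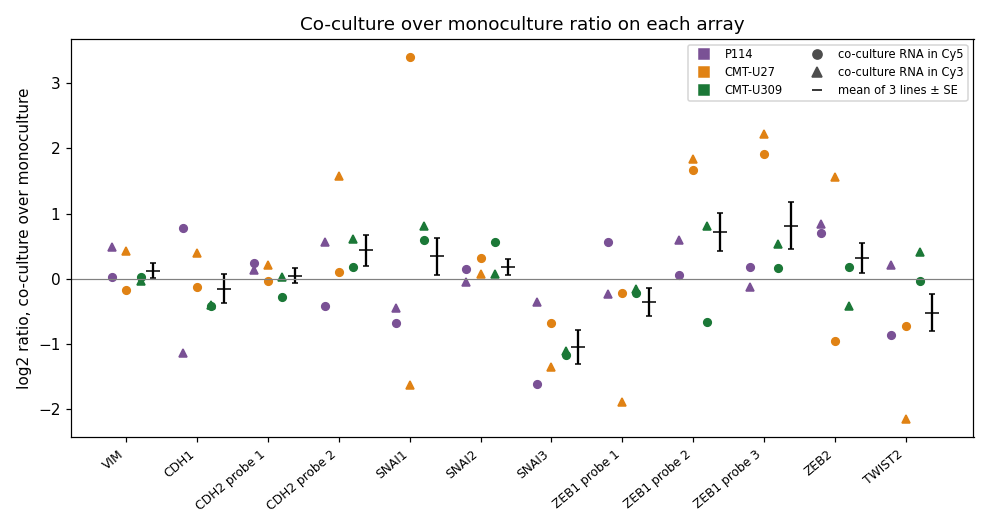
Log2 ratio of co-culture over monoculture (vertical axis) on each of the 6 arrays for the 12 probes, with colours for cell lines, circles for co-culture RNA in Cy5, triangles for co-culture RNA in Cy3 and black bars for the mean of 3 lines ± SE. *SNAI3* lies below 0 on 6 of 6 arrays, and the CMT-U27 ratios of *SNAI1* run from -1.63 to 3.41.

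The other EMT lists gave 1 call in co-culture. *TNC*, the gene of the matrix protein tenascin C, had a mean ratio of -1.21 (SE 0.30, adjusted p = 0.50 in limma), and was 1 of 24 mesenchymal genes. It was well above background in 2 of 4 channels of P114, 2 of 4 of CMT-U27 and 3 of 4 of CMT-U309. The same thresholds called 1.22% of all probes. None of 21 junction genes, 10 epithelial regulators and 23 inducers and cofactors passed, and the list medians were -0.03, 0.05, 0.04 and, for the mesenchymal genes, 0.18. *TNC* was named after its value was seen. Among the 5 basal and myoepithelial markers tested, 1 was lower in co-culture past the same thresholds. Myeloid markers, which would mark MDSC RNA, did not pass in 11 of 11 genes with a probe, and *SPI1*, *ITGAM* and *LYZ* were well above background in no channel. *S100A8* was so in 12 of 12 channels, in monoculture too, and the other 7 genes in between 1 and 11 channels. *MPO* was well above background in 4 of 4 channels of CMT-U309, *CYBB* in 3 and *PTPRC* in 3. Their summed signal in P114 was 567 in co-culture and 626 in monoculture. It was 12293 and 6899 for CMT-U27 and 1057 and 996 for CMT-U309, and its part in the ratios was not tested. Across all probes the log2 ratios of a dye-swap pair correlated between -0.39 (P114) and 0.26 (CMT-U27).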

How the data were processed

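Co-culture and monoculture RNA of each line was hybridized to Agilent canine 4x44K arrays. The authors deposited the scanner output, which holds processed signal intensity per dye after background subtraction and dye normalization, with surrogate values for low signals. The file headers give Feature Extraction 10.10.1.1 and the submitters' processing notes give 10.7.3.1. A deposited table of the authors' log10 ratios was an alternative only. It matched the ratio of the scanner output turned to co-culture over monoculture within 4.997e-06, with no scaling between arrays and a median of 0 in each column. Intensities were on a linear scale and were converted to log2 here from the deposited values.

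Each channel was brought to the same median. Outlier spots were dropped, as were probes that never exceeded an intensity of 10, and spots of a probe were averaged. The probes of a gene were kept apart, and the brightest stood for a listed gene. For levels, the Cy5 and Cy3 channels of a culture were averaged and 6 cultures were fitted with line and condition. For co-culture, the dye-swap was averaged and the mean of 3 lines was tested against 0. Both used limma 3.58.1 in R 4.3.3 (lmFit, eBayes with a trend) and Benjamini-Hochberg adjustment over 40861 probes, and were tested on simulated data. Bounds used Aquantile normalization of both channels and are open to dye bias. They hold for the processed signals and not for every alternative. The number of arrays limits the precision. Files were read with Python.

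Some probe sequences and positions are not reported here. The genes and lists were chosen with earlier results of these data known. All members were named, and of each other list up to 2 genes in each direction with the largest called difference between CMT-U309 and CMT-U27. Alternatives were normexp (offset 50) with loess, other scaling, filters and variance models, outlier spots kept, the deposited ratios, the methods' t-test, each line and array left out, and replicate blocks.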

Additional observations from a re-analysis of the deposited data

Results flagged for a closer look

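The *SNAI1* co-culture ratio was negative on both arrays of P114, with a mean of -0.57, and positive on both arrays of CMT-U309, with a mean of 0.71. With normexp these means were -0.18 and 0.16. The difference between the lines was not tested, because each line has 1 dye-swap. The *ZEB1* ratio of -1.89 on the second CMT-U27 array (brightest probe) lay far from the other 5 arrays. In this channel of co-culture RNA the probe was not well above background. Groups of 6 arrays were examined for 12 probes, and chance marks about 1 in 20 of them.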

How the results depend on the processing

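Levels of CMT-U27 against the other lines kept their direction in every alternative for the 11 probes called, and the calls held except that of *SNAI1* for CMT-U309 minus CMT-U27 without the second CMT-U27 array. Depth of signal over background limits *SNAI3*, *ZEB2* and the CMT-U27 ratios. CMT-U309 minus P114 was least stable. Probes called there numbered 12058, against 21460 without scaling and 7410 without a trend, and member probes called numbered 3, against 5 without scaling, 1 without a trend and 1 in the fit of 12 channels with the replicate block. The 3 were *VIM*, *SNAI1* and *SNAI3*, all lower, and the 5 were *CDH2*, *SNAI2*, *ZEB1*, *ZEB2* and *TWIST2*, all higher. With the replicate block *SNAI1* (adjusted p = 0.17) and *SNAI3* (adjusted p = 0.077) were not called in limma. The number of the arrays marks the dye orientation. Between lines, co-culture ratios correlated from -0.22 to 0.40 for number 1 and from 0.47 to 0.61 for number 2. The 2 arrays of the same line correlated at -0.39 (P114), -0.09 (CMT-U309) and 0.26 (CMT-U27). The arrays of number 2 were thus more alike across lines than the 2 arrays of a line, and the cause was not tested. Calls higher were 39.9% of all calls for CMT-U309 minus P114 and 92.1% without scaling. These shares were 52.4% and 79.1% for CMT-U27 minus P114, and 42.3% and 61.3% for CMT-U309 minus CMT-U27.

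In co-culture, 500 probes passed the methods' thresholds, against 3 with normexp, 92 well above background in at least 6 channels and 117 with the methods' t-test, and from 107 to 2672 with an array or line left out. Probes past adjustment were 0, against 6 in the fit of 6 arrays with the replicate block, 5 without it, and from 0 to 6330 with an array or line left out. Member probes past the methods' thresholds were 1, 0 with normexp, 0 well above background, and from 0 to 3 with an array or line left out.

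Signs turned as follows, and the cause was not tested. With normexp, co-culture changes were 0.021 for *CDH1*, -0.0026 for the brighter *CDH2* probe and -0.0037 for the second *ZEB1* probe, CMT-U309 minus P114 was 0.10 for *VIM* and 0.026 for the second *CDH2* probe, and CMT-U309 minus CMT-U27 was 0.0066 for *SNAI3*. Without scaling, CMT-U309 minus P114 was 0.15 for *VIM*, 0.58 for *CDH1* and 0.44 and 0.73 for *CDH2*, and with quantile normalization 0.11 for *VIM*. The median over *ZEB1* probes gave 0.72 in co-culture. With an array or line left out, co-culture changes ran from -0.47 to 0.16 for *CDH1*, from -0.022 (without P114) to 0.13 for the brighter *CDH2* probe, from -0.50 to 1.18 for *SNAI1* and from -0.10 to 0.74 for *ZEB2*. CMT-U309 minus P114 ran from -0.20 to 0.12 for the second *CDH2* probe and from -0.12 to 0.18 and -0.17 to 0.53 for the 2 dimmer *ZEB1* probes, and CMT-U309 minus CMT-U27 from -1.66 to 0.37 for *SNAI3*. Of the ratios of single lines, which have no test, 8 turned sign with normexp. In CMT-U309 they became 0.27 for *VIM*, 0.015 for *CDH1*, -0.46 for the second *ZEB1* probe, 0.012 for *ZEB2* and -0.15 for *TWIST2*, and in P114 0.017 for *CDH1*, -0.014 for the second *CDH2* probe and -0.037 for *SNAI2*.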
